A study of Mus musculus with 16 samples.

Results

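At several places along the mouse genome, neighbouring DNase hypersensitive sites (DHS) were found in liver of one strain and in neither sex of the other. The data described here cover 8 gene loci, Prkce, Pde7b, Ank3, Tssc1, Moxd1, Gm1153, Got2 and Gm7112, out of 37310 genes in the mm9 annotation. The genes were chosen on the measured presence of DHS in the lists of one strain, so that presence is given as a description and not as a test. Each locus was the annotated gene with 100 kb on both sides. The 8 loci held 128 of the 51482 DHS regions of the series, a region being all peaks of the 4 lists that overlapped by at least 1 bp. DNase-seq maps open chromatin, and it was applied to nuclei from livers of mice aged 8 weeks. They came from males and females of C57BL/6J (B6), the laboratory strain behind the reference genome, and of CAST/EiJ (CAST), which was bred from wild castaneus mice. The enzyme dose was 32 units of DNase I, and the 16 libraries fell into 4 groups by sex and strain. Each group of 4 was represented by 1 list of DHS, called on its merged libraries. A spread between replicates could therefore not be had, no test was made, and all statements compare these 4 lists. B6 had 38751 DHS in males and 26271 in females, and CAST had 39562 and 24888.

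DNase I cuts DNA most readily where nucleosomes have been displaced, mostly at promoters and at distal enhancers bound by transcription factors. Liver enhancers are commonly bound by factors such as C/EBP, HNF4A, HNF6 and FOXA, and in liver the growth hormone-activated factor STAT5 acts at many sites that differ between the sexes. A gene can be served by several distal elements, so a locus is described best by the order of its DHS and not by a single peak. In whole tissue, fewer nuclei with an open site and less frequent cutting in every nucleus cannot be told apart.

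The DNA under the highest strain-limited DHS of each locus is shown first, since these regions lead the strain-limited series described below. Each is the plus strand of mm9, 300 bases centred on the summit in the list with the highest fold enrichment. Capitals mark matches on either strand to the letters searched, which were TTCNNNGAA for STAT5, TTGCNNAA for C/EBP, TGTTTAC for FOXA, ATCGATNA or ATCAATA for HNF6, CAAAGTCCA for HNF4A and AGGNGGCAG for CTCF. The first 4 sequences were limited to B6.
Prkce, chr17:86863782-86864081: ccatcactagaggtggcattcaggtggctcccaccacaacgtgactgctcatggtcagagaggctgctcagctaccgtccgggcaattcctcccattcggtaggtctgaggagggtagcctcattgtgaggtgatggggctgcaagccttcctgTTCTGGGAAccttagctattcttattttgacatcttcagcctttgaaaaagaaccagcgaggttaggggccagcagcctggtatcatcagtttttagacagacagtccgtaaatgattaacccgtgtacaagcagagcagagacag
Pde7b, chr10:20495740-20496039: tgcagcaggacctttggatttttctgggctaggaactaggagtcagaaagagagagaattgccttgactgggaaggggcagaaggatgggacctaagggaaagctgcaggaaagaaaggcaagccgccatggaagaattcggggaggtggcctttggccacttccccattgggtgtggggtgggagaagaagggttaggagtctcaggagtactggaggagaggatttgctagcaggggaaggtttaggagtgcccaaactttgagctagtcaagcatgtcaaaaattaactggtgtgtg
Ank3, chr10:69393384-69393683: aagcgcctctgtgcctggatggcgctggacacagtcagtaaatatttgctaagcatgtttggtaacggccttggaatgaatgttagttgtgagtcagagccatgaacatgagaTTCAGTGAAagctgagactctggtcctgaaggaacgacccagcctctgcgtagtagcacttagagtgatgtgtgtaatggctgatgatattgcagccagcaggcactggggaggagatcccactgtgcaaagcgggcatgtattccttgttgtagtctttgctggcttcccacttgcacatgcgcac
Tssc1, chr12:29583349-29583648: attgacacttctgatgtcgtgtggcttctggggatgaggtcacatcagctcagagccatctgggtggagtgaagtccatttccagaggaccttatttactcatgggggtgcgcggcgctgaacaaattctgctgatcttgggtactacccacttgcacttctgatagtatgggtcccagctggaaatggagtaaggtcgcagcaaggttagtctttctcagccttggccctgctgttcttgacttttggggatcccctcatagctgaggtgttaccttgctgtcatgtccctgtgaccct
The next pair was limited to CAST.
Moxd1, chr10:23948114-23948413: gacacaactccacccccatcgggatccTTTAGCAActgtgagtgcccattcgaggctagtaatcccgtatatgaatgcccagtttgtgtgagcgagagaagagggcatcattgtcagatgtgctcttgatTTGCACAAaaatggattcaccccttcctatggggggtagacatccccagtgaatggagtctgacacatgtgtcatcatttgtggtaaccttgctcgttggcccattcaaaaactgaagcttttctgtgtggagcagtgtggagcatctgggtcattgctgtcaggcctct
Gm1153, chr8:57973028-57973327: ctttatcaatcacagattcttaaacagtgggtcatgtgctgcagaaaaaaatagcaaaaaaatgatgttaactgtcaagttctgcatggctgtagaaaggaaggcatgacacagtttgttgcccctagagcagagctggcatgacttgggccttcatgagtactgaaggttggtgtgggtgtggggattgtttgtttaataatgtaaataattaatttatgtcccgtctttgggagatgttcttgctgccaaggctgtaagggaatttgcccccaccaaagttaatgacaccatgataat
At Got2 the highest strain-limited region of the locus was a weak B6 region, and the highest region of a CAST run outside the locus follows it. No region lay in the locus of Gm7112, and the highest region of the CAST run on both sides of it is shown. Both of these runs were added after their values were seen.
Got2, chr8:98440030-98440329: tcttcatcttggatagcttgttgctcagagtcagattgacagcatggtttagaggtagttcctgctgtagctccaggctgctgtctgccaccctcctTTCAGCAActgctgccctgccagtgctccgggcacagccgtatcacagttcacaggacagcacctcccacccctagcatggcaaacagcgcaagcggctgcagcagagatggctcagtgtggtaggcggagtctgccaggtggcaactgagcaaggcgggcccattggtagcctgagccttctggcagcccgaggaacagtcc
Got2 (run beyond the window), chr8:98575913-98576212: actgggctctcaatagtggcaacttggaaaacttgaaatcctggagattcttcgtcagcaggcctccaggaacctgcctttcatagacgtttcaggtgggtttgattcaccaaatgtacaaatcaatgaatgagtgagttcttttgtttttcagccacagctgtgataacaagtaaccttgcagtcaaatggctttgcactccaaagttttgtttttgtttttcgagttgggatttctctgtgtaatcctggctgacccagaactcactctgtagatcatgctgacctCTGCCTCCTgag
Gm7112 (run beyond the window), chr12:115225762-115226061: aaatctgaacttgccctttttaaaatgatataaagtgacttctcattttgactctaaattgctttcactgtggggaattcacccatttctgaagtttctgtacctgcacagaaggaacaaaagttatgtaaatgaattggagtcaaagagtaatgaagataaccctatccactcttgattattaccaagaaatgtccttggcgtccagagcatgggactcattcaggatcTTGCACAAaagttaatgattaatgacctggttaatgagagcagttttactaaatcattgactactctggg

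A match to STAT5 letters stood in the Prkce and Ank3 sequences, and matches to C/EBP letters stood in those of Moxd1, the Got2 locus and the Gm7112 run. The sequence of the Got2 run held a match to CTCF letters. The Pde7b, Tssc1 and Gm1153 sequences held no match to any of the letters searched. Such a match is a description of the reference letters, and binding was not measured.

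Of the 128 regions, 61 were found in both strains, 41 were limited to B6 and 26 to CAST, where limited means present in at least 1 list of the strain and in neither list of the other. The 67 strain-limited regions were 52.3% of the 128, against 42.1% of all regions of the series. Over all regions, 20.7% were limited to B6 and 21.4% to CAST. These shares were used in choosing the loci, and nothing is read from the difference. A run was a series of 3 or more neighbouring regions limited to the same strain with no other region between them. Runs held 9.21% of all regions and 36 of the 128 regions of the loci. Within the 100 kb limits a run was present at 6 of the 8 loci, namely Prkce, Pde7b, Ank3, Tssc1, Moxd1 and Gm1153. The longest series was 2 regions at Got2, and Gm7112 held no region at all. For comparison, 2732 of 22380 protein-coding genes (12.2%) had a run of 3 or more in the same kind of window, 311 (1.39%) a run of 5 or more and 136 (0.608%) a run of 6 or more. These windows widen with gene length, from 201 kb at Gm1153 and Gm7112 to 693 kb at Ank3, and the shares take no account of this.

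**Figure D1:**
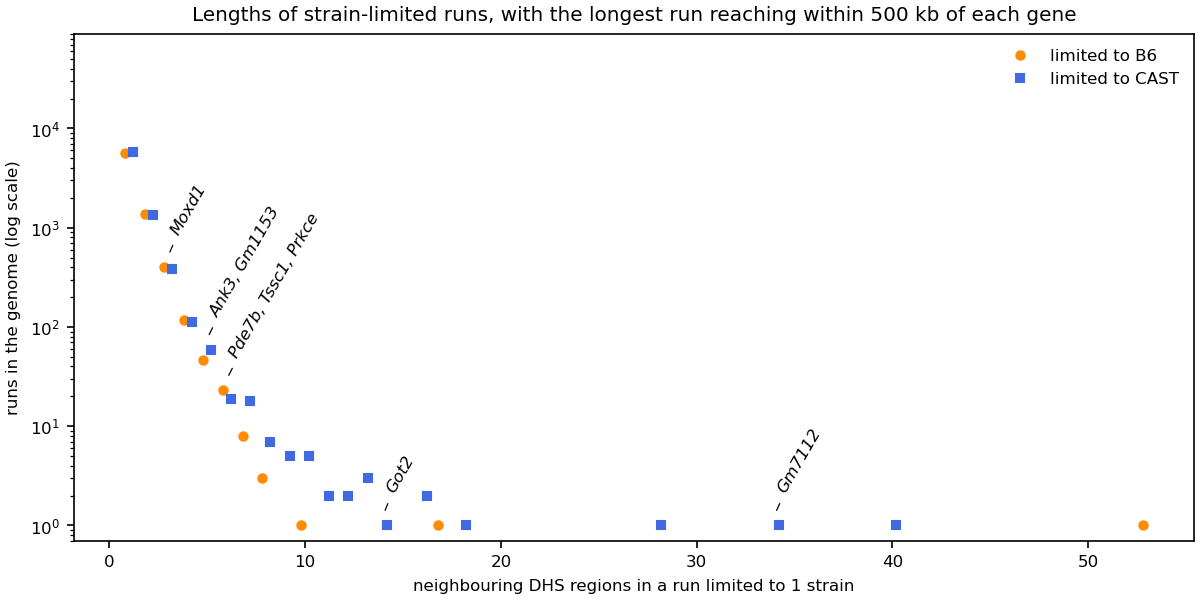
Number of runs in the genome (y, log scale) against the number of neighbouring regions in a run limited to 1 strain (x), for B6 (circles) and CAST (squares), with series of 1 and 2 regions included. The B6 run of 53 regions is on chromosome Y, and without this chromosome the longest had 17 regions in B6 and 40 in CAST. The whole length of the longest run that came within 500 kb of each gene is marked: 3 regions for Moxd1, 5 for Ank3 and Gm1153, 6 for Pde7b, Tssc1 and Prkce, 14 for Got2 and 34 for Gm7112.

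The values given for each region are fold enrichments, the ratio of the read pileup at the summit to the background that the peak caller used there. A peak on the genome-wide background entered the B6 lists from a fold enrichment of 1.90 in males and 1.94 in females, and the CAST lists from 1.90 in males and 2.24 in females. The genome-wide background recovered from the lists, which follows depth, was 15.3 overlapping reads for B6 males, 13.9 for B6 females, 14.2 for CAST males and 7.94 for CAST females. Absence from a list therefore says that a site did not pass that list's limit, and not that it was closed. Of the 41 regions limited to B6, 35 exceeded the higher of the 2 CAST entry levels in at least 1 B6 list, and 8 exceeded 2 times that level. The shares over all B6-limited regions of the genome were 68.1% and 4.18%. Of the 26 regions limited to CAST, 24 exceeded the higher of the B6 entry levels and 4 exceeded 2 times that level, against 97.4% and 11.5% over the genome. All 4 lists had a DHS within 2.5 kb of a start site for 4 of 5 hepatocyte genes, namely Alb, Apoa1, Cps1 and Hnf4a. Their fold enrichments were between 2.30 and 6.73 in B6 males, 2.97 and 4.93 in B6 females, 3.26 and 7.21 in CAST males, and 3.69 and 5.51 in CAST females.

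Prkce encodes protein kinase C epsilon, a lipid-activated serine/threonine kinase. The gene lies on the plus strand at chr17:86567125-87057259, and its locus held the most regions of the 8 loci, 50 in all. Of these, 17 were limited to B6, 6 to CAST and 27 were found in both strains, 21 of them in all 4 lists. The promoter DHS was among the 21, with fold enrichments of 3.94 and 3.34 in B6 males and females, and 3.97 and 4.79 in CAST males and females. The B6-limited regions were thus placed among many shared ones and away from the promoter.

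The longest B6 run at Prkce had 6 regions in introns, over 91.1 kb from 182.8 to 273.4 kb downstream of the gene start. In order, the 1st region (86749585 to 86750186) had a fold enrichment of 2.53 in male B6 and the 2nd (86783881 to 86784295) one of 2.81, neither being in the female B6 list. The 3rd region (86792359 to 86792916) stood out, at 7.70 in male and 4.28 in female B6, percentiles 89.0 and 70.7 of those lists. The 4th (86814035 to 86814375) had 2.24 and the 5th (86837993 to 86838705) 2.89, in male B6 alone. The last (86840388 to 86840693) was in the female B6 list alone, at 1.97, close to that list's entry level. The 3rd region was thus the highest of the run in both sexes, and the other 5 were each in 1 of the B6 lists.

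After 2 shared regions, a second B6 run of 4 regions covered 12.5 kb of intron, from 290.8 to 302.6 kb downstream. Its 1st region (86857684 to 86858163) had fold enrichments of 4.46 in male and 2.82 in female B6. The 2nd (86862421 to 86862859) had 2.32 in male B6, and the last (86869355 to 86870170) had 2.40 in male B6. Between them lay the highest strain-limited region of all 8 loci (86863561 to 86864320), whose sequence is printed first above. It reached 11.6 in male B6 (458 overlapping reads at the summit, percentile 97.7 of the list) and 8.27 in female B6 (201 reads, percentile 96.3). The nearest CAST peak of either sex lay 16719 bp from it. Only the region at 86902429 to 86903316, in an intron and in all 4 lists, was higher at this locus, with 12.2 and 9.31 in B6 males and females, and 15.2 and 13.4 in CAST males and females. An opposite pair was present in the same gene, since 2 neighbouring intronic regions 35.4 and 36.3 kb downstream were limited to CAST. The higher of them (86603133 to 86603808) had 6.18 in male and 3.57 in female CAST, and lay 1417 bp from a peak found in B6.

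**Figure D2:**
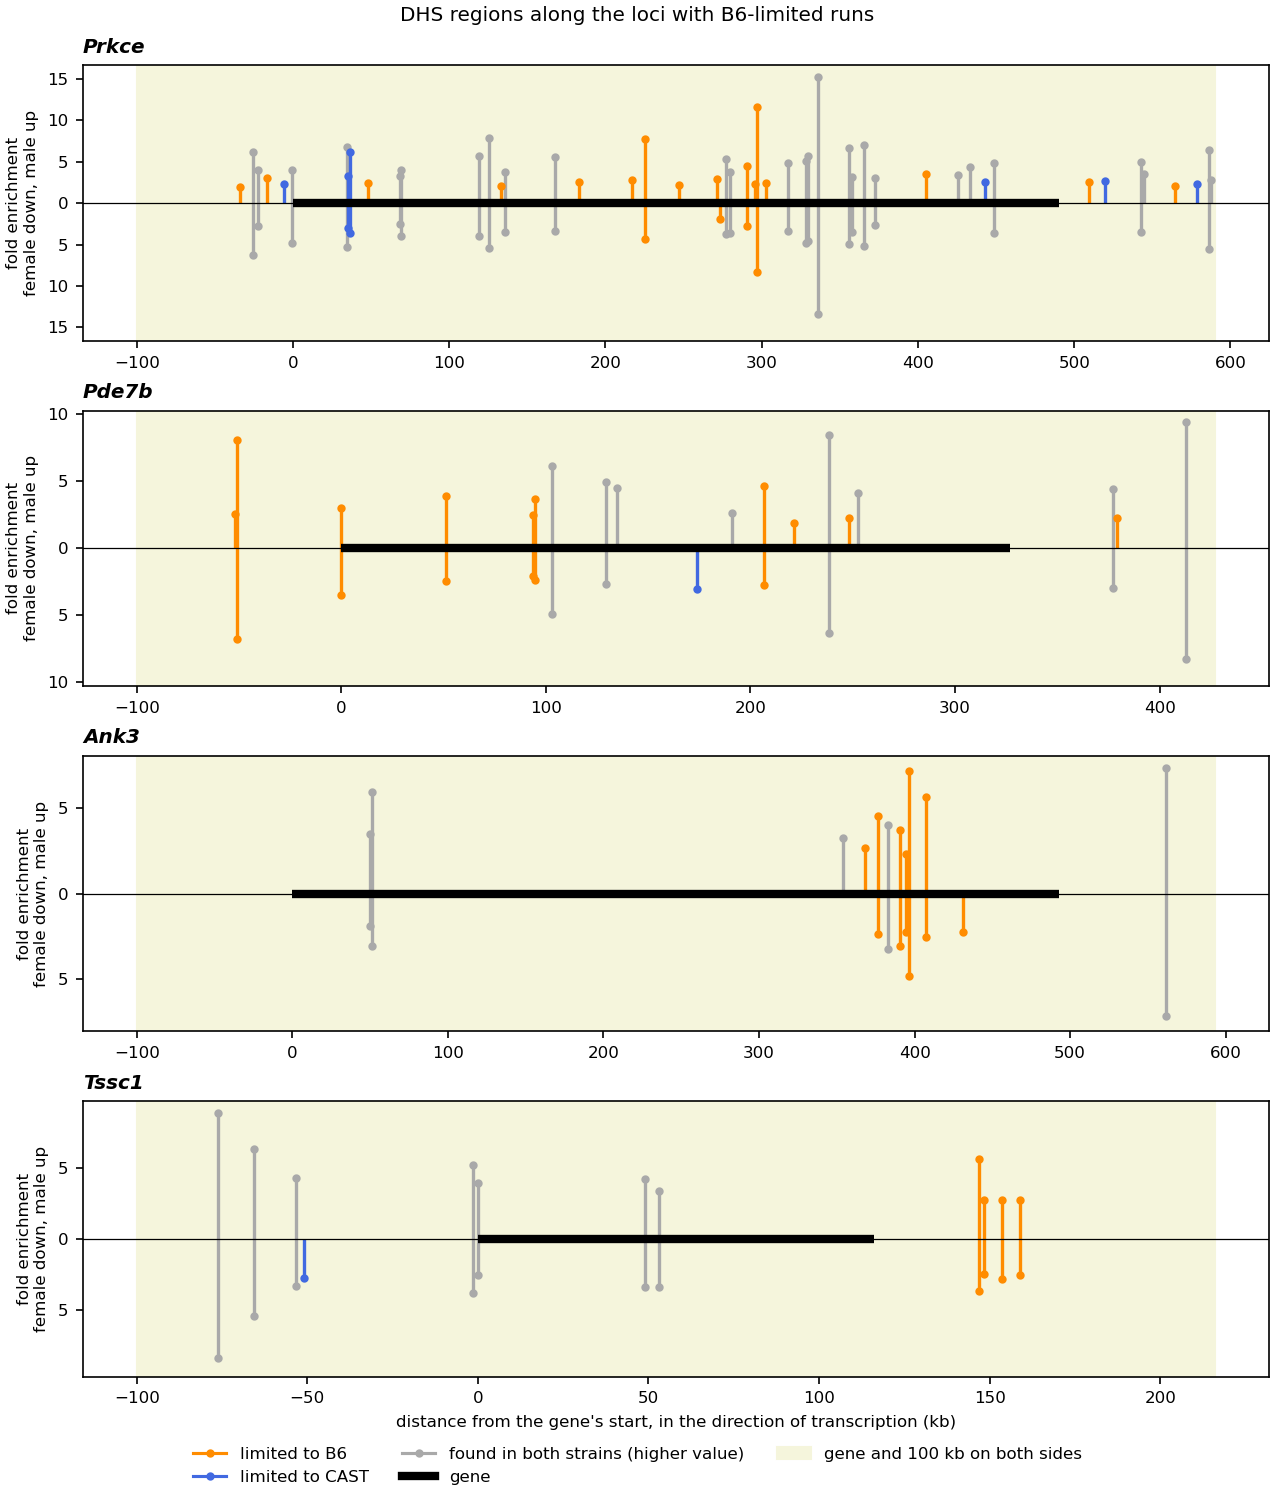
Fold enrichment of each DHS region (y; male lists upward, female lists downward) against distance from the gene's start in the direction of transcription (x, kb) at Prkce, Pde7b, Ank3 and Tssc1. Orange stems are limited to B6, blue to CAST and grey, drawn at the higher of both strains, were found in both; the B6 series sit inside the gene at Prkce and Ank3, across the start at Pde7b and past the end at Tssc1.

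Pde7b encodes a cAMP-specific phosphodiesterase, which ends cyclic AMP signalling. The gene lies on the minus strand at chr10:20117810-20444884. Its locus held 19 regions, of which 10 were limited to B6, 1 to CAST and 8 were found in both strains, 3 of these in all 4 lists. The male B6 list had 18 of the 19 regions, the female B6 list 11, the male CAST list 8 and the female CAST list 4.

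The B6 run of 6 regions crossed the gene's start, from 94.6 kb downstream to 52.1 kb upstream, and included the promoter. In the direction of transcription, the upstream end began with a region (20496773 to 20497199) at 2.54 in male B6 and absent from female B6. Next to it was the highest region of the run (20495449 to 20496304), 51.0 kb upstream of the start, with 8.12 in male and 6.80 in female B6. The promoter region (20444536 to 20445281), over a UTR exon at the gene's start, had 3.01 in male and 3.48 in female B6, and lay 102303 bp from the nearest CAST peak. Of the 5 regions of the run in both B6 lists, it was the one where the female value was above the male one. An intronic region 51.1 kb downstream (20393423 to 20394211) had 3.90 in male and 2.47 in female B6. The last pair (20351072 to 20351681, and 20350044 to 20350449) had 2.48 and 3.67 in male B6, and 2.06 and 2.38 in female B6, respectively. No peak of either CAST list lay in the 206 kb around the run, from 20342233 to 20547923, and outside the run no B6 peak did. The gene's start thus had a DHS in both B6 lists and in neither CAST list. A region limited to CAST (20270711 to 20270990), in the female list alone at 3.02, lay 2435 bp from another annotated start site inside Pde7b. The highest shared region of the locus lay over the start of the neighbouring gene Bclaf1 (20031274 to 20033071). It had 8.63 and 8.24 in B6 males and females, and 9.41 and 8.27 in CAST males and females.

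Within Pde7b but outside the run, a further region limited to B6 (20237765 to 20238666, over an exon of the noncoding genes 4930403O15Rik and Gm17229) had 4.67 in male and 2.74 in female B6. Of the 50-base words around its summit, 21.1% occurred a single time in mm9, the lowest share in the 8 loci, and mapping was limited to unique reads. The part that this had in the values of the region was not tested. A weak B6-limited region (20223416 to 20223649, 1.88 in male B6) lay next to it. Further downstream, an intronic region in all 4 lists (20206218 to 20207074) had 8.47 and 6.36 in B6 males and females, and 5.10 and 4.93 in the CAST ones. The gene body therefore held open sites in CAST as well, downstream of the stretch without CAST peaks.

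Ank3 encodes ankyrin-G, an adaptor that ties membrane proteins to the spectrin cytoskeleton. The gene lies on the plus strand at chr10:68996970-69490184, and its locus held 12 regions, 7 of them limited to B6, none to CAST and 5 found in both strains. The run of 5 B6 regions covered 41.1 kb near the 3′ part of the gene, from 390.7 to 430.9 kb downstream of the gene start. Its 1st region (69386916 to 69388516), over a UTR exon at an internal start site of the gene, had 3.71 in male and 3.07 in female B6. The 2nd (69391129 to 69391521) had 2.31 and 2.23 in the same order. The 3rd, the highest of the locus among the strain-limited regions (69393174 to 69393747), had 7.18 in male and 4.83 in female B6. The 4th (69403572 to 69404662) had 5.64 and 2.53, the widest gap between the sexes in this run, and the last (69427789 to 69428026) was in the female B6 list alone, at 2.28.

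The background that the peak caller used at this run was the highest of the 8 longest runs, with a median of 41.7 reads in male B6 against 15.3 genome-wide, and 20.9 against 13.9 in female B6. The pileups at the 4 summits in male B6 were between 124 and 269 reads. A stretch of 178 kb around the run, from 69380009 to 69557868, held no CAST peak and, outside the run, no B6 peak. Its far edge was a shared region near the start of Ccdc6 (69557868 to 69559858), with 7.10 and 4.47 in B6 males and females, and 7.36 and 7.21 in CAST males and females. Another 2 B6-limited regions stood before the run, of which the higher (69372915 to 69373814) had 4.53 in male and 2.39 in female B6. All 5 strain-limited regions found in both B6 lists at this locus had the higher value in the male list.

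Tssc1 encodes a WD-repeat protein that takes part in endosome trafficking. The gene lies on the plus strand at chr12:29436693-29552356, and its locus held 12 regions, 4 limited to B6, 1 to CAST and 7 found in both strains, 6 of these in all 4 lists. The 4 B6-limited regions were all intergenic, past the 3′ end of the gene, 146.8 to 158.8 kb downstream of its start. All 4 were in both B6 lists. In order, they had 5.62, 2.77, 2.75 and 2.75 in male B6, and 3.66, 2.52, 2.85 and 2.55 in female B6. The 1st (29583147 to 29583853) was thus the highest in both sexes, and the other 3 (29584660 to 29585590, 29590235 to 29590562 and 29595291 to 29595786) lay within a narrow range. The promoter DHS (29436312 to 29436904) was in 3 lists, with 2.81 and 2.57 in B6 males and females, and 3.98 in CAST males.

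The 100 kb limit divided the Tssc1 run. The last region inside it was the 4th (29595291 to 29595786), and the next (29652681 to 29652994) lay 325 bp outside, with 2.20 in male B6 alone. It was followed by a region (29654363 to 29655114) with 4.40 in male and 2.80 in female B6, so that the whole run had 6 regions over 72.0 kb. No annotated gene overlapped it, and no CAST peak lay in the 270 kb from 29490053 to 29759992. Outside the run, that stretch held no B6 peak either.

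Moxd1 encodes a monooxygenase related to dopamine beta-hydroxylase. The gene lies on the plus strand at chr10:23943323-24022596. Its locus held 14 regions, 7 limited to CAST, 1 to B6 and 6 found in both strains. Of these 7, 6 were in the male list alone, as were 71.2% of all CAST-limited regions of the genome. The male CAST list had 13 of the 14 regions, the male B6 list 7, the female CAST list 4 and the female B6 list 3.

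The 7 formed 2 runs of 3 and a single region. The 1st run lay in introns 5.1 to 16.9 kb downstream of the gene start. Its 1st region (23947776 to 23949028), shown above, had 4.16 in male CAST (148 reads) and 2.80 in female CAST (24 reads). The 2nd (23957660 to 23958209) and 3rd (23960013 to 23960347) had 2.81 and 2.72 in male CAST. The other run was intergenic, 127.0 to 139.3 kb downstream, with 3.41 (24070143 to 24070422), 2.67 (24081282 to 24081573) and 2.66 (24082225 to 24082933) in male CAST. Between the runs lay the single CAST-limited region (23977764 to 23978035, 2.30 in male CAST) and 4 regions found in both strains. One of the 4 was in all 4 lists (24036765 to 24037456), with 3.55 and 2.89 in B6 males and females, and 3.97 and 3.41 in CAST males and females. The other 3 were in the male lists of both strains and in neither female list. The intronic regions at 23966439 to 23967288 and 23974459 to 23975171 had 7.15 and 8.21 in male CAST against 2.57 and 4.95 in male B6, whereas the intergenic one at 24032042 to 24032372 had 4.08 against 4.83. No region overlapped the annotated start of Moxd1. The highest region in all 4 lists (24098806 to 24099596), an intergenic one, had 7.69 and 4.89 in B6 males and females, and 9.70 and 6.29 in CAST males and females. Male values were thus higher in both strains there as well. The same held for the highest such region at Prkce, Pde7b, Ank3, Tssc1 and Got2, but not in CAST at Gm1153. The female lists had fewer DHS than the male ones, and sex and depth cannot be told apart here.

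**Figure D3:**
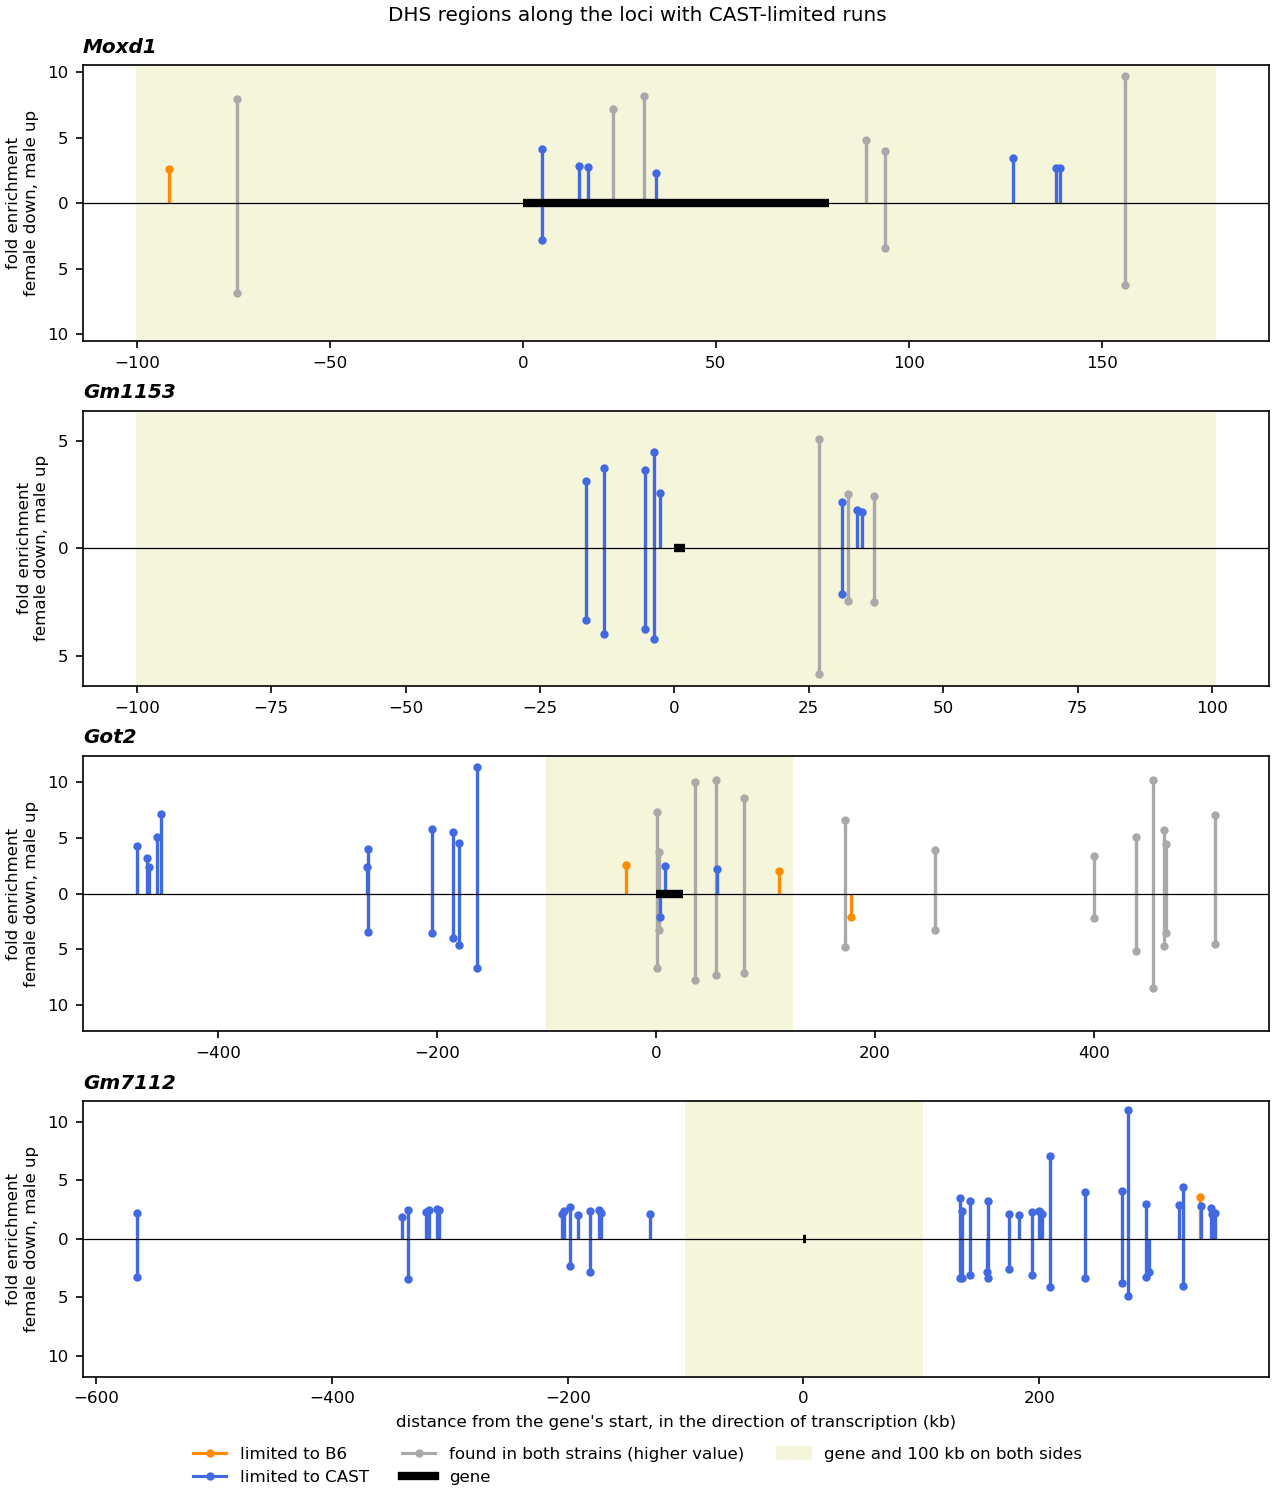
Fold enrichment of each DHS region (y; male lists upward, female lists downward) against distance from the gene's start in the direction of transcription (x, kb) at Moxd1, Gm1153, Got2 and Gm7112, coloured blue for regions limited to CAST, orange for B6 and grey for both strains (higher value). The shaded band is the gene with 100 kb on both sides; at Got2 and Gm7112, drawn to 600 kb, the CAST series lie outside it.

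Gm1153 is a predicted gene of 0.507 kb on the plus strand at chr8:57977384-57977890. Its locus held 11 regions, 8 limited to CAST, none to B6 and 3 found in both strains. The run of 5 lay just upstream, 16.4 to 2.7 kb before the gene start, over 14.6 kb. In order, the regions had 3.12, 3.71, 3.64, 4.49 and 2.56 in male CAST, and the first 4 had 3.34, 3.98, 3.76 and 4.19 in female CAST. The 4th (57972811 to 57974333) was the highest in both sexes, and female values were above male ones in the other 3 regions found in both lists. The regions were wide, with a median of 1406 bp against 364 bp over all regions limited to CAST. The nearest peaks of B6 were 1993 kb apart, at 56011033 and 58003545, and the run stood in the last part of this stretch. Outside the run, the stretch held no CAST peak either, so most of it was without DHS in both strains.

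Past the gene, 26.9 kb downstream, the highest region of the locus (58003545 to 58004968) was called in male B6 at 2.20 and not in female B6, and had 5.05 and 5.85 in CAST males and females. It was followed by 2 wide, weak regions found in all 4 lists and, next to them, 3 narrower ones limited to CAST at 2.17, 1.77 and 1.68 in male CAST (58008274 to 58008711, 58011097 to 58011394 and 58011963 to 58012610), each within 800 bp of a peak found in B6. The last pair had local backgrounds of 52.2 and 53.1 reads, against 14.2 genome-wide, and stood below the 1st percentile of the list. The highest region in all 4 lists (58008989 to 58010297), intergenic, was weak as well, with 2.51 and 2.41 in B6 males and females, and 2.12 and 2.43 in CAST males and females.

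Got2 encodes mitochondrial aspartate aminotransferase, an enzyme of the malate-aspartate shuttle. The gene lies on the minus strand at chr8:98388034-98412447. Its locus held 10 regions, of which 5 were in all 4 lists, 3 were limited to CAST and 2 to B6. None of the 5 strain-limited regions was found in both sexes. Over the genome, 84.0% of B6-limited and 83.1% of CAST-limited regions were likewise in 1 sex alone. The promoter DHS (98411063 to 98412489) had 5.24 and 4.22 in B6 males and females, and 7.35 and 6.69 in CAST males and females. The longest series limited to a strain was a pair of intronic regions (98403800 to 98404052, and 98408443 to 98408701), the former at 2.47 in male CAST alone and the latter at 2.09 in female CAST alone. The highest strain-limited region (98439927 to 98440293, upstream of the gene) had 2.57 in male B6 alone. The description of the locus as a run of strain-limited DHS was therefore not met within 100 kb of Got2. The highest region in all 4 lists (98357216 to 98358269), intergenic, had 10.2 and 7.32 in B6 males and females, and 7.70 and 5.73 in CAST males and females.

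Beyond the limit, upstream of Got2, a CAST run of 14 regions began 63217 bp outside the locus. It opened with its highest region (98575664 to 98576486), at 11.4 in male CAST (percentile 96.6) and 6.71 in female CAST (percentile 83.5). The next 4 regions were also in both CAST lists, with 4.52, 5.52, 5.84 and 4.0 in male CAST and 4.63, 3.98, 3.58 and 3.47 in female CAST. After these, 8 were in the male list alone and the last (102034102 to 102034413) was in the female list alone, at 2.57. The other high regions were at 98864452 to 98865211, with 7.19, and at 101478996 to 101479604, with 10.1, both in male CAST alone. The 5 regions nearest to Got2 were thus in both CAST lists and the other 9 in 1 of them. The genome-wide background was 7.94 reads in female CAST and 14.2 in male CAST. The part that depth had in these absences was not tested. In all, 11 of the 14 lay within 500 kb of the gene, and the largest gap between neighbours was 2592 kb. The stretch without B6 peaks measured 3725 kb and held 3 protein-coding genes within the span of the run, among them Cdh8, which encodes a cadherin. Outside the 14 regions, the stretch held no CAST peak either.

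Gm7112 is a predicted gene of 0.679 kb on the minus strand at chr12:115500483-115501161, annotated among immunoglobulin heavy chain variable (V) segments, which B cells rearrange to build antibodies. No list had a peak within 100 kb of it. The nearest regions lay 31139 bp and 29732 bp outside the limits, and both belonged to the same CAST run of 34 regions, which extended over 889 kb from 115178047 to 116066869. Of the 34, 16 were in both CAST lists, 16 in the male list alone and 2 in the female list alone. The first (115178047 to 115179460) had 4.46 in male and 4.03 in female CAST, and the last (116066558 to 116066869) had 2.23 and 3.24. The 3 highest were at 115225527 to 115226287, with 11 in male and 4.92 in female CAST, at 115291262 to 115292032, with 7.08 and 4.14, and the first region itself. In male CAST the run had a median of 2.42, percentile 15.2 of the list, and in female CAST a median of 3.30, percentile 30.3. Few regions thus rose above a low level. The nearest B6 peaks on either side were 2120 kb apart, and outside the run no CAST peak lay between them.

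The annotation held 42 V segments over the span of the run, and 1 of the 34 regions overlapped a segment. None of the 4 B-cell genes Cd79a, Cd79b, Ms4a1 and Pax5 had a DHS within 2.5 kb of a start site in either B6 list. Pax5, which encodes a B-cell transcription factor, had one in the CAST lists, at 2.61 in male and 3.17 in female, and the other 3, which encode B-cell surface proteins, had none in any list. The part that B cells in the tissue had in the Gm7112 run was not tested.

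**Figure D4:**
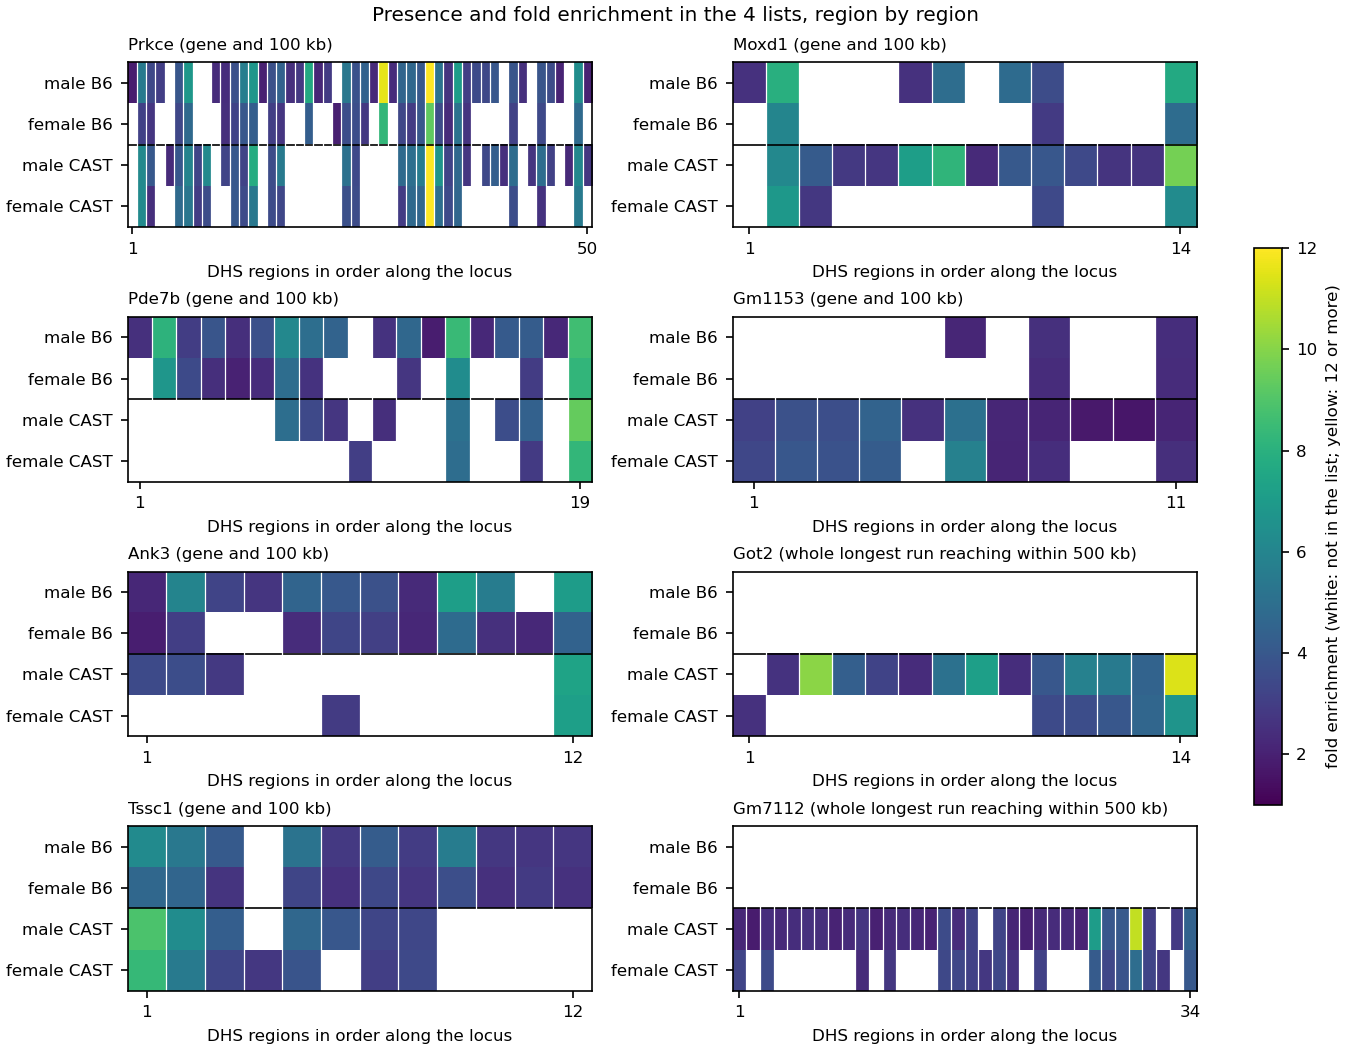
Presence and fold enrichment (colour; white where a region is not in a list) of each DHS region, in order along the locus in the direction of transcription (x), in each of the 4 lists (rows). Windows of the gene with 100 kb are shown except for Got2 and Gm7112, where the longest run that came within 500 kb is shown in its whole length; the 14 and 34 regions of these runs leave both B6 rows white.

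The strain-limited regions of the loci were compared between the sexes of the strain that had them. Of the 41 limited to B6, 18 were in both B6 lists (43.9%), 21 in the male list alone and 2 in the female list alone. Over the genome, 84.0% of the B6-limited regions were in 1 of the 2 lists alone and 68.8% in the male list alone. Of the 26 limited to CAST, 8 were in both CAST lists (30.8%), 15 in the male list alone and 3 in the female list alone, and over the genome 83.1% were in 1 list alone. The loci were chosen with the lists known, so the shares are given as values. The loci differed in this respect. All 4 B6-limited regions of Tssc1, 5 of 7 at Ank3 and 6 of 10 at Pde7b were in both sexes, whereas 3 of 17 at Prkce were. Among the CAST loci, 5 of 8 at Gm1153 and 1 of 7 at Moxd1 were in both sexes.

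Where both sexes had a region, the male value was the higher in 16 of 18 B6-limited regions, with a median male-to-female ratio of 1.44, and in 5 of 8 CAST-limited regions, with a median of 1.04. Over all regions of this kind in the genome the male value was the higher in 1297 of 1708 in B6 (median ratio 1.19) and in 1181 of 1862 in CAST (median ratio 1.09). The lists of the sexes differ in depth, and sex and depth cannot be told apart in these ratios. The lowest ratio among the longest B6 runs was at the Pde7b promoter, 0.864, and the highest at the 4th region of the Ank3 run, 2.23.

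**Figure D5:**
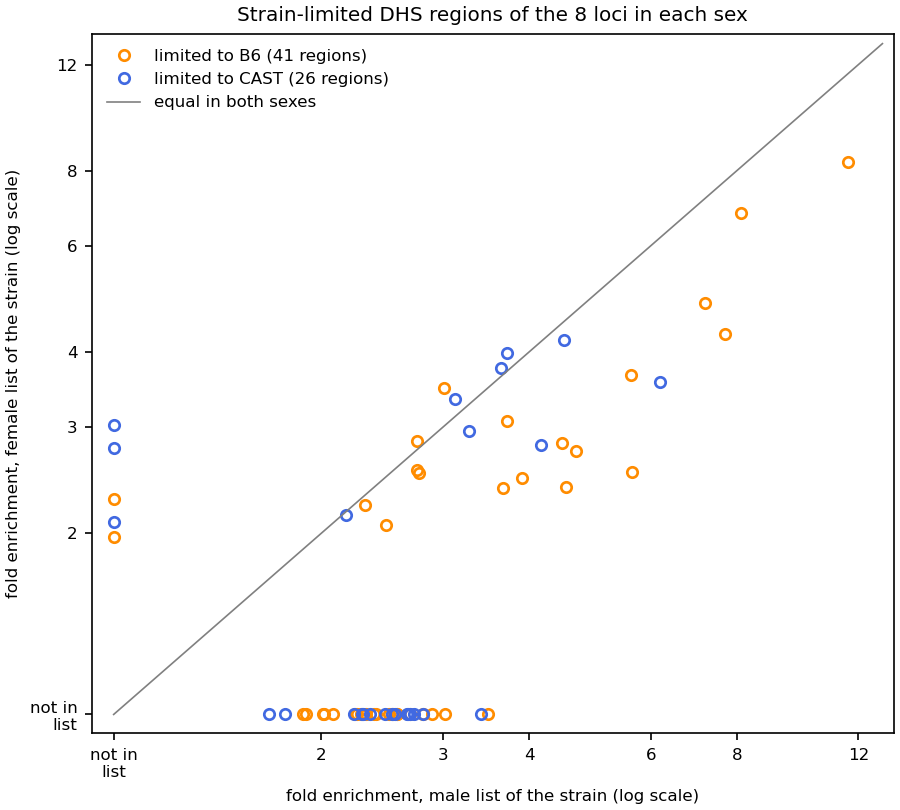
Fold enrichment in the female list (y, log scale) against the male list (x, log scale) of the same strain for the 41 B6-limited (orange) and 26 CAST-limited (blue) DHS regions of the 8 loci; regions in a single list lie on the lines marked as not in the list. Points below the grey diagonal are higher in males, as 16 of the 18 B6-limited regions in both lists were.

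In level, the B6-limited regions of the loci had a median fold enrichment of 2.75 in male B6 (percentile 31.0 of the list) and 2.64 in female B6 (percentile 27.1), against 2.45 and 2.41 over all B6-limited regions. The CAST-limited regions had 2.67 in male CAST (percentile 24.1) and 3.02 in female CAST (percentile 20.9), against 2.56 and 2.91. Shared regions of the loci had a median of 4.20 in male B6 and 4.55 in male CAST. The medians of the strain-limited regions thus lay in the lower part of their lists. Among the longest runs the median percentile in the male list was 65.6 at Ank3, 61.2 at Got2, 48.3 at Gm1153, 46.2 at Pde7b, 33.0 at Prkce, 31.6 at Tssc1, 28.8 at Moxd1 and 15.2 at Gm7112. The strain-limited regions of the loci were mostly distal, with 37 of 41 B6-limited and 25 of 26 CAST-limited regions more than 2.5 kb from every start site, against 45 of the 61 shared regions. The share over the genome was 80.6% of B6-limited, 83.8% of CAST-limited and 56.1% of shared regions.

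The sequence under the summits was described for features that were not used to choose the loci. The median GC content in the 300 bases was 49.0% for B6-limited regions of the loci, 44.0% for CAST-limited ones and 48.3% for shared ones, with 49.0% over all regions. It was low at the Gm1153 run, with a median of 33.0%, and at the Gm7112 run, with 37.2%. Words of 50 bases, taken along the 300 bases, all occurred a single time in mm9 at 38 of 41 B6-limited regions, 25 of 26 CAST-limited regions and all 61 shared regions, against 97.0% of all regions. The exceptions with the lowest shares were limited to B6, at 21.1% for the Pde7b region over 4930403O15Rik and Gm17229, and at 80.5% for the higher of the regions before the Ank3 run. Among the longest runs, every word was unique at all regions of Pde7b, Ank3, Gm1153, Moxd1 and Prkce, at 5 of 6 at Tssc1, 12 of 14 at Got2 and 30 of 34 at Gm7112, where the lowest region had 73.3% unique words and the regions with the highest values, 11 and 7.08 in male CAST, had 75.3% each. Neither the strain-limited nor the shared regions of the loci matched the mitochondrial genome over 50 bases or more.

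Of the letters searched, those for C/EBP stood in 11 of the 26 CAST-limited regions, 5 of the 41 B6-limited ones and 16 of the 61 shared ones, against 17.2% of all regions. STAT5 letters stood in 8 of the 26 CAST-limited regions, 6 of the 41 B6-limited ones and 9 of the 61 shared ones, against 10.2% of all regions. FOXA letters were found in 1 CAST-limited, 2 B6-limited and 8 shared regions, against 6.59% of all, and HNF6 letters in 2, 3 and 2, against 5.76%. HNF4A letters were found in 1 shared region alone, against 1.67% of all regions, and CTCF letters in 2 B6-limited and 4 shared regions, against 3.64%. The high region of the 1st Moxd1 run held 2 matches to C/EBP letters, and so did the high region of the longest Prkce run.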

How the data were processed

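DNase-seq was analysed from 4 lists of DHS, one for each sex and strain, with groups taken from the library titles. Per the labels and methods, the authors mapped unique reads with Bowtie2, B6 reads to mm9 and CAST reads to mm9 carrying known CAST variants, returned CAST positions to mm9, merged the 4 libraries of a group and called peaks with MACS2, removing blacklisted regions. The deposited value per peak used here is the fold enrichment, a ratio of summit pileup to background. The authors' peak score, −log10 p and −log10 q are also deposited. The −log10 p served to recover pileups and the −log10 q the alternatives, and the deposited summit offset placed the sequences. The score was not used further.

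Peaks were joined at 1 bp of overlap (Python 3.11.15, pandas 2.3.3, numpy 2.4.6) and placed on the GENCODE annotation of mm9, with coordinates counted from 1. The lists do not state depth. With the pseudocount of 1 that MACS2 adds, fold and p fix the pileup and background, and 99.9% or more of pileups per list lay within 0.02 of a whole number. Joining and recovery were tested on simulated data. Words of 50 bases were counted over mm9 on both strands (numba 0.67.0), and mitochondrial matches came from BLAST 2.17.0 (E value limit 1e-05).

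The members and lists were chosen with earlier results of these data known. All 8 genes are named, with every region of each longest run (of runs over 8 regions, the first, the last and the 3 highest), the highest strain-limited region and the highest region in all 4 lists. Other regions, and the runs outside the windows of Got2 and Gm7112, were named after their values were seen. The share of soft-masked bases was not computed, since the reference used carries no mask. A further gene of the B-cell marker list is not reported here. Alternatives were another overlap, a stricter threshold, lists of equal size, other flanks, a joining gap and presence in both lists. Wider flanks of 500 kb and a limit on fold enrichment were added after the data were seen.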

Additional observations from a re-analysis of the deposited data

Results flagged for a closer look

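At 3 loci the highest region in all 4 lists had a male-minus-female difference in percentile of opposite sign in the 2 strains, and none of these differences was tested, since each group had 1 list. At Pde7b the region at the start of Bclaf1 differed by -4.11 percentile points in B6 and 1.54 in CAST. At Ank3 the region near Ccdc6 differed by 12.8 in B6 and -1.64 in CAST. At Tssc1 the region over a coding exon of Adi1 differed by 5.69 in B6 and -0.566 in CAST. On the scale of fold enrichment the male value was the higher in both strains at all 3 regions, with male-to-female ratios in B6 and CAST of 1.05 and 1.14 at Pde7b, 1.59 and 1.02 at Ank3, and 1.34 and 1.06 at Tssc1.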

How the results depend on the processing

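No paired analysis was possible with the lists used, because each held the merged replicates of 1 group. Leaving out single replicates could not be tried with them either. The main counts were 67 strain-limited regions, 41 limited to B6 and 26 to CAST, with a run at 6 loci. In the same order, the 3 counts of regions were 31, 21 and 10 with the stricter threshold (a −log10 q of at least 15.7), 42, 27 and 15 with lists of equal size (24888 peaks), 37, 27 and 10 in gene bodies, 26, 18 and 8 when both lists of a strain were required, and 172, 74 and 98 with 500 kb on both sides. They stayed within 1.5 times of the main counts with 50% overlap, 50 kb flanks, peaks within 500 bp joined, and a fold enrichment of at least 2.24. A run was present at 4 loci with the stricter threshold, being lost at Tssc1 and Moxd1. It was present at 4 with both lists required, being lost at Prkce and Moxd1. With equal lists it was present at 5, being lost at Moxd1, and with 500 kb flanks at 8. Between 8 alternatives the longest run ranged from 4 to 6 regions at Ank3, 4 to 7 at Gm1153, 3 to 7 at Pde7b, 2 to 6 at Tssc1, 2 to 7 at Prkce, 1 to 3 at Moxd1, 0 to 11 at Got2 and 0 to 33 at Gm7112. The female CAST list had the lowest background, so its absences are the least informative.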

Other observations

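The start sites of several neighbouring genes in the same windows carried a DHS in all 4 lists, next to the strain-limited regions. Giving males before females and B6 before CAST, the promoter of Epas1, which encodes a hypoxia-inducible factor and lies past Prkce, had fold enrichments of 6.38, 4.81, 6.11 and 5.54. That of Stx7, a syntaxin gene before Moxd1, had 7.92, 6.00, 6.13 and 6.85. Near Got2, Cnot1, a gene of the CCR4-NOT deadenylase, had 6.97, 4.88, 8.60 and 7.17. At Ttc15, next to Tssc1, the values were 5.20, 3.29, 4.68 and 3.84.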
